A study of Mus musculus with 2 samples.

Results

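The genes described here are those whose symbols start with Rpl or Rps and a digit, without symbols holding -ps. Of 32285 genes in the count matrix, 92 met this rule and 5 symbols were left out for -ps. Sorted by what their products are known to be, 73 of the 92 encode canonical subunit proteins of the cytosolic ribosome, 43 of the large and 30 of the small subunit. Another 10 encode kinases named after ribosomal protein S6, 8 encode paralogs of subunit proteins, and 1, Rps19bp1, encodes a protein that binds a subunit. The symbol rule therefore gathers genes of different function, and the classes are given apart below. A further 6 subunit genes, among them Rplp0, Rplp1, Rplp2 and Rpsa, carry other symbols and fell outside the rule.

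The nuclei came from tumour-associated macrophages (TAMs), the macrophages found within a tumour, of mammary tumours in PyMT mice, which develop such tumours from the polyoma middle T oncogene. There were 2 samples, 1 for each genotype. The first is control-PyMT; the other is MYC-PyMT, which adds a MYC allele at Rosa26 (Rosa26-LSL-MYC) that S100a8-cre switches on, and the strain was labelled as backcrossed to B6. Irradiation was at 7 weeks of age, followed by a marrow graft from Fcgr1-cre-Rosa26LSL-H2B-mCherry/+ donors, and all mice began a low protein diet 2 weeks after that and ate it for 6 weeks. TAMs were sorted as live CD45+ F4/80+ Vcam+ cells without SiglecF, Ly6G, B220 or Ly6C, and their nuclei were sorted as mCherry+, SYTO9+ (a nucleic acid dye) and CD11b-. The S100a8 promoter drives cre in cells of myeloid descent and the Fcgr1 promoter in monocyte and macrophage descent; the donor genotype as labelled holds no MYC allele, and the mCherry gate selects donor-derived cells. Barcodes carry a suffix of 1 or 2 for the well. No label ties a well to a genotype, so the matrix was treated as 1 pooled sample, without a genotype comparison, a test or a p-value. Intervals are exact 95% intervals, which cover counting error only and not differences between mice or libraries.

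After filtering, 1812 nuclei with 7342649 unique molecular identifiers (UMIs, each a distinct captured transcript molecule) were kept, with a median of 2493 UMIs in well 1 (1377 nuclei) and 2852 in well 2 (435 nuclei). Nuclei were called macrophage nuclei with 3 or more UMIs of Ptprc, Csf1r, Adgre1 and Mertk summed (1130 nuclei), and epithelial nuclei with 3 or more UMIs of 11 epithelial markers and under 3 macrophage UMIs (299 nuclei). The remaining 383 nuclei, here the other nuclei, had a median of 879 UMIs. A separate list of 6 macrophage genes, among them the C1q genes, stood at 2126 CPM (UMI counts scaled to a common total of 1000000) in macrophage nuclei and 389 in epithelial nuclei, and the epithelial markers at 884 and 3219. Macrophage nuclei also held milk protein transcripts (5 of 7 genes, 1129 CPM, Wap and Glycam1 at 0), a neutrophil list lay at 83.5 CPM (Retnlg at 0), and T cell, fibroblast and endothelial lists at 15.3 to 31.2 CPM. The 2 wells shared 9 barcode sequences.

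Ribosomal protein genes encode the structural proteins of the ribosome, and a cell makes them in near-equal amounts for assembly with ribosomal RNA in the nucleolus. Their short mRNAs are among the most abundant in the cytoplasm, and many begin with a run of pyrimidines (a TOP motif) through which mTOR signalling and LARP1 control their translation. S6 kinases act upstream: Rps6kb1 and Rps6kb2 encode mTOR-driven kinases that phosphorylate S6, Rps6ka1, Rps6ka2, Rps6ka3 and Rps6ka6 encode the RSK kinases of the ERK pathway, and Rps6ka4 and Rps6ka5 encode the chromatin-directed MSK kinases.

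Start regions are shown because a TOP motif, where a gene has one, opens the mRNA at its start. Of the canonical members with an entry, they are the 4 with most UMIs in all nuclei that hold CTTTC there and the 2 with most that do not. The 4 and 2 thus say nothing of how common the letters are. Of the kinases with an entry, the 2 with most UMIs stand beside them, grouped with the subunit genes by name only. Rps6ka3 had more UMIs but has no entry. Each line holds 35 bases before and 25 bases after the annotated start, 5′ to 3′ on the gene's strand, from RefSeq on GRCm38.p6. Capitals mark CTTTC on the gene's strand. They begin at the annotated start in Rpl38 only. In Rpl13 they lie before it, and in Rpl13a and Rpl27a after it, so they need not be part of a TOP motif. The 4 subunit genes that come first hold it, at chr8:123102315-123102374 (plus strand) for Rpl13, chr7:45128721-45128780 (minus) for Rpl13a, chr11:114668545-114668604 (plus) for Rpl38 and chr7:109519160-109519219 (plus) for Rpl27a.
Rpl13: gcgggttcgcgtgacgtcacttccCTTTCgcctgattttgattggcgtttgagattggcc
Rpl13a: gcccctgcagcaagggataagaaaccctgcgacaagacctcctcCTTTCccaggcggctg
Rpl38: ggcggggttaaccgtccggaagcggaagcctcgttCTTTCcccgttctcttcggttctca
Rpl27a: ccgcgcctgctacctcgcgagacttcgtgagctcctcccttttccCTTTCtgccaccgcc
The subunit genes Rpl23 (chr11:97782415-97782474, minus) and Rpl41 (chr10:128549144-128549203, minus) and the kinases Rps6ka5 (chr12:100725096-100725155, minus) and Rps6kb1 (chr11:86544783-86544842, minus) do not hold these letters in this window.
Rpl23: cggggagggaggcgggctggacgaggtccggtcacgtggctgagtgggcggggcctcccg
Rpl41: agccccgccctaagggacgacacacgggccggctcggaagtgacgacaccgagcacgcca
Rps6ka5: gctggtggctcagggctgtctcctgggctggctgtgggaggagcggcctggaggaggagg
Rps6kb1: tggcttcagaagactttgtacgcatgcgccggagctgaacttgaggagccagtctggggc

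Of the 92 members, 71 had an entry, among them 54 canonical genes with 64 annotated starts. CTTTC on the gene's strand lay in the printed window at 20 of the 64 starts (31.2%), against 8.01% of 32851 starts of all genes, while the opposite strand held it at 5 starts (7.81%, against 7.29%). The motif CCGGAAG, bound by ETS factors, lay on either strand within 250 bases before to 50 after 23 of the 64 starts (35.9%, against 8.86%). Among 11 starts of S6 kinases, CTTTC lay at 0 and CCGGAAG at 1, and among 10 starts of paralogs each lay at 2. The printed window was widened after a search of 1 start a gene in the bases from 10 before to 15 after, in which CTTTC lay at 12 of 54 canonical genes (22.2%, against 3.06%). In that search a C followed by 4 pyrimidines within 5 bases of the start lay at 25 of 54 (46.3%, against 18.5%), AAGATGGC on either strand at 4 (7.41%, against 2.88%) and TATAAA on either strand at 4 (7.41%, against 14.2%). These 5 motifs are all that were searched, and a match of letters is not evidence of use. A CTTTC in the printed window need not lie where a TOP motif would.

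In macrophage nuclei the canonical members together gave 51141 of 4838023 UMIs (1.06%, 1.05% to 1.07%). The large subunit gave 0.604% of UMIs and the small subunit 0.453%, and the S6 kinases 0.0944%, the paralogs 0.0170% and Rps19bp1 0.000971%. The lowest canonical member was Rpl29 at 48.6 CPM, and the median over canonical members was 140 CPM. Every nucleus kept held at least 1 UMI of a canonical member.

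Of the 10 members with most UMIs in macrophage nuclei, 8 were subunit genes and 2 were kinases. Among them, Rpl23 had 289 CPM (chr11:97777527-97782437; positions from GENCODE vM21 on GRCm38), Rps29 had 276 CPM (chr12:69157722-69159186) and Rpl13 had 275 CPM (chr8:123102350-123105244). The kinase Rps6ka3 (RSK2, X:159210307-159368244) was at 269 CPM and Rps6ka5 (MSK1, chr12:100548439-100726983) at 234 CPM, above the subunit genes Rpl13a (232 CPM), Rpl41 (230 CPM), Rpl37a (212 CPM) and Rpl38 (212 CPM). Neighbours in this order, such as Rps29, Rpl13 and Rps6ka3, had overlapping counting intervals.

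On a per-length scale the kinases fell far down the order. In CPM per kb of annotated transcript, Rps29 (709), Rpl38 (464), Rpl41 (452), Rpl36 (415) and Rps27 (407) stood highest, whereas Rps6ka3 had 37.2 (place 77 of 92) and Rps6ka5 had 53.2 (place 71). This order depends on the annotated transcript taken for each gene, and UMI counts need not scale with transcript length. The median gene length was 3243 bases over the canonical members (828 to 31449) and 89568 over the S6 kinases (9364 to 211569), so the kinases span far more intron; whether intronic reads were counted is not given in the sources used here.

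The remaining kinases were led by Rps6kb1 (S6K1, 123 CPM), Rps6kc1 (113 CPM), Rps6ka1 (RSK1, 93.2 CPM) and Rps6ka2 (RSK3, 91.4 CPM). Rps6kb2 had 8.47 CPM, Rps6ka4 4.75, Rps6ka6 4.34 and Rps6kl1 1.65. Among paralogs, Rpl36al had 54.4 CPM, Rps27l 40.1, Rpl22l1 39.3, Rpl7l1 32.5 and Rps27rt 3.93, and Rps19bp1 had 9.71. In all kept nuclei Rpl3l had 2 UMIs, Rpl39l 1 and Rpl10l 0, which are genes of muscle and testis ribosomes. Rps6ka2 had 108 CPM in well 1 and 39.8 in well 2, while Rps6ka3 had 250 and 328, and neither well is mapped to a sample.

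The canonical share was highest in the shallowest nuclei. Depth bins run from the lower bound up to, and not including, the upper. In macrophage nuclei of 500 to 1000 UMIs it was 2.96% of UMIs (2.79% to 3.13%, 50 nuclei), and it was 1.13% at 1000 to 2000 UMIs (188 nuclei), 0.984% at 2000 to 4000 (527 nuclei) and 0.881% at 4000 to 8000 (320 nuclei). At 8000 UMIs and over the pooled share was 1.30% (45 nuclei), but the median nucleus there had 0.895%. Medians per nucleus in the shallower bins were 3.08%, 0.883%, 0.827% and 0.762%. The rise of the deepest bin was thus smaller at the median, whereas the shallowest bin was high at its median too.

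**Figure D1:**
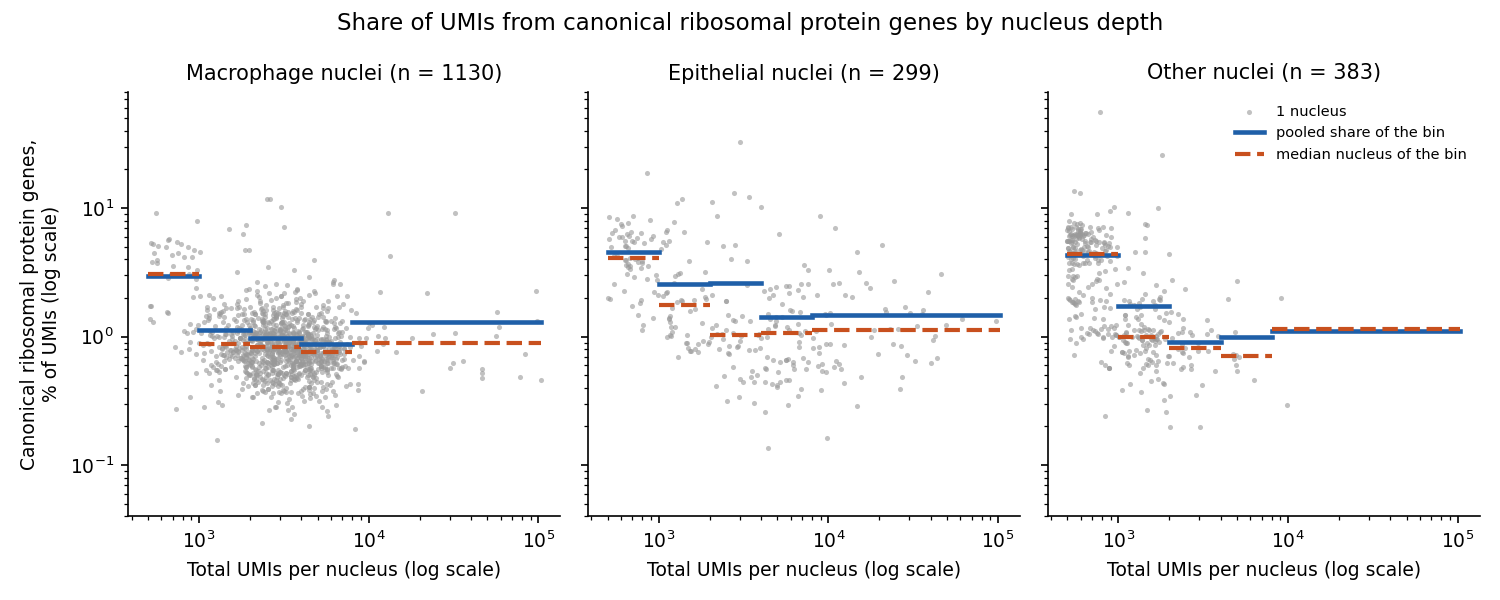
Share of UMIs from the 73 canonical members (y axis, percent, log scale) against total UMIs of each nucleus (x axis, log scale) for macrophage, epithelial and other nuclei; points are nuclei, blue bars the pooled share of a depth bin and dashed bars its median nucleus. Macrophage nuclei fell from 2.96% at 500 to 1000 UMIs to 0.881% at 4000 to 8000, and pooled and median bars part most in epithelial nuclei of 2000 to 4000 UMIs (2.63% and 1.03%).

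The share was highest in the shallowest bin in epithelial and other nuclei too. In epithelial nuclei the pooled share was 4.59% at 500 to 1000 UMIs (63 nuclei), 2.57% at 1000 to 2000 (54), 2.63% at 2000 to 4000 (51), 1.41% at 4000 to 8000 (65) and 1.48% at 8000 and over (66). In other nuclei it was 4.31% in the 215 shallowest, 1.73% in 121 nuclei of 1000 to 2000 UMIs and 0.916% in 35 nuclei of 2000 to 4000. Well 1 held 43 of the 50 shallow macrophage nuclei, with 3.19% canonical UMIs, and the 7 of well 2 had 1.66%.

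Macrophage nuclei that also held epithelial transcripts had the higher pooled share in each bin, by little at 4000 to 8000 UMIs. The 103 macrophage nuclei with 3 or more epithelial UMIs had 6.08% canonical UMIs at 500 to 1000 UMIs (5 nuclei), 5.38% at 1000 to 2000 (3 nuclei), 2.25% at 2000 to 4000 (29 nuclei), 0.992% at 4000 to 8000 (38 nuclei) and 1.37% at 8000 and over (28 of 45 nuclei). Without them the bins, from shallow to deep, stood at 2.62%, 1.05%, 0.906%, 0.865% and 0.886%. The pooled shallow excess thus stayed and little was left of the pooled rise of the deepest bin. Medians per nucleus without them were 0.752% at 4000 to 8000 UMIs (282 nuclei) and 0.895% at 8000 and over (17 nuclei), so a rise stayed at the median. Over all macrophage nuclei, epithelial markers were at 1219, 284, 253, 215 and 2662 CPM in these bins. The markers summed had a ratio of 0.960 (0.702 to 1.28) between nuclei under 1000 UMIs and those of 4000 and over. That deep set joins the bins at 215 and 2662 CPM, and the shallow 1219 CPM lay between them. Milk protein genes were at 3472, 672, 539, 386 and 2862 CPM over these bins in all macrophage nuclei and mitochondrially encoded genes at 2386, 844, 719, 512 and 1992 CPM. Their part in the share was not tested.

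A small number of nuclei were made up of ribosomal protein transcripts to an unusual degree. Canonical members gave 55.6% of 779 UMIs in 1 nucleus of the other group, 32.9% of 3004 UMIs in 1 epithelial nucleus and 25.9% of 1798 UMIs in another of the other group. A share of 5% or more was found in 20 of 1130 macrophage nuclei (1.77%, 1.08% to 2.72%), 48 of 299 epithelial nuclei (16.1%) and 91 of 383 other nuclei (23.8%). The 20 macrophage nuclei held 11.9% of the canonical UMIs of their group. Of these, 11 had 3 or more epithelial UMIs, against 92 of the 1110 below 5%, and milk protein genes were at 18472 CPM in them against 876.

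To find which members carried the depth pattern, macrophage nuclei under 1000 UMIs (50 nuclei, 37728 UMIs) were set against those of 4000 UMIs and over (365 nuclei). Nuclei with 3 or more epithelial UMIs weighed much in the deep set. At 8000 UMIs and over, 28 of 45 nuclei were such and gave 1105929 of 1274826 UMIs. At 4000 to 8000 UMIs, 38 of 320 nuclei were, with 209269 of 1682878 UMIs. The ratios of single members below include these nuclei. Canonical members summed to 1116 and 31461 UMIs, a CPM ratio of 2.78 (2.62 to 2.95). Of 73 canonical members, 60 were 2-fold or more higher in shallow nuclei, where 13.4% of 9713 genes with 30 or more UMIs were, and 1 was 2-fold or more lower, where 35.7% of genes were. The median ratio was 2.84 over the canonical members, 1.04 over the 6 kinases with enough UMIs and 0.822 over all genes. Of all genes, 27.5% had 0 UMIs in the shallow set, which sets how far the lower count can reach.

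**Figure D2:**
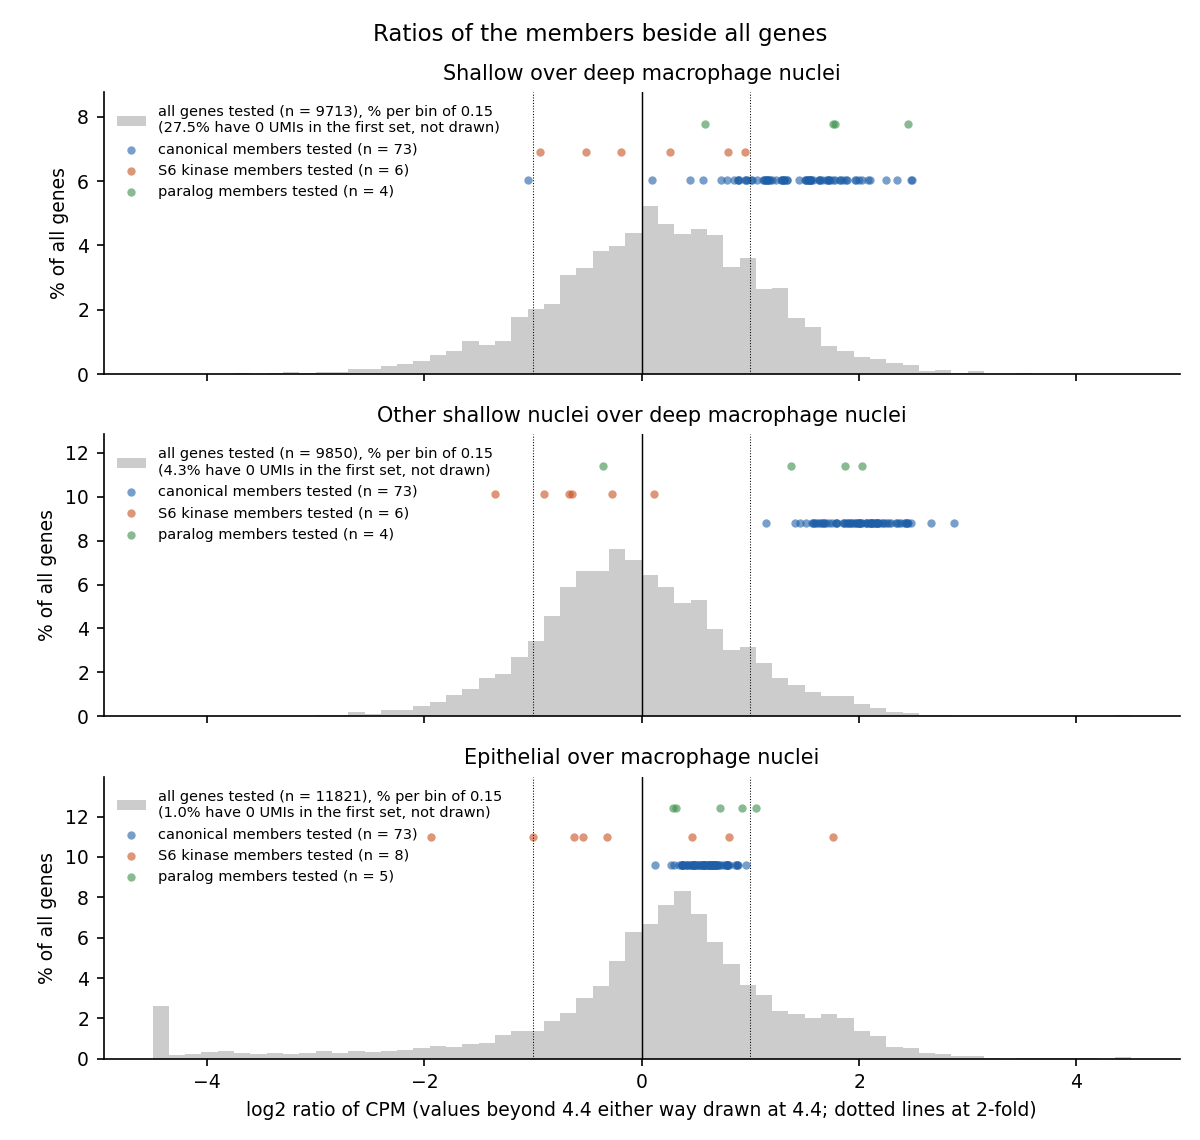
Log2 ratio of CPM (x axis) of each member with 30 or more UMIs, as points coloured by class, above the distribution of all genes tested (grey bars, percent of genes), for the 3 contrasts of nuclei; dotted lines mark 2-fold. Canonical members lay to the right of the bulk of genes in both shallow sets (medians 2.84-fold and 4.04-fold) and near it in epithelial nuclei (1.5 against 1.2), while most S6 kinases lay left of them.

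By subunit gene the shallow set was thin and single values were wide. Rps15a had 24 UMIs there and the highest canonical ratio, 5.60 (3.54 to 8.48), and others near the top were Rps24 with 5.11 (3.46 to 7.31, 32 UMIs), Rps26 with 4.76 (2.49 to 8.32, 13 UMIs) and Rpl26 with 4.28 (2.50 to 6.86, 18 UMIs). At the other end, Rpl29 had 1 UMI and a ratio of 0.484 (0.0122 to 2.73), Rpl7a 4 UMIs and 1.07 (0.290 to 2.77), Rpl4 5 UMIs and 1.36, Rpl3 10 UMIs and 1.48, and Rpl38 13 UMIs and 1.66 (0.879 to 2.86). The 5 lowest were all large subunit genes, and 72 of 73 ratios were above 1. Against the summed ratio of the other canonical members, 6 of 73 canonical members were 1.5-fold or more higher and 10 lower. Of 9713 genes, 1.64% lay that far above the summed canonical ratio and 84.2% that far below. The interval stayed clear of the summed ratio for 3 of the higher members, Rps15a and Rps24 among them, and for 4 of the lower ones.

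In sum, the S6 kinases lay below the canonical members in this contrast, as most genes did. They came to 39 and 2641 UMIs, a ratio of 1.16 (0.821 to 1.59), and 84.2% of the 9713 genes lay 1.5-fold or more under the summed canonical ratio. Rps6ka3 stood at 0.701 (0.281 to 1.45), Rps6kc1 at 0.524 (0.0632 to 1.91) and Rps6ka1 at 0.874 (0.179 to 2.58), each with an interval below the canonical value. Rps6ka2 was at 1.2, Rps6kb1 at 1.74 and Rps6ka5 at 1.93 (1.08 to 3.22), on 4, 8 and 15 shallow UMIs. The paralogs went with the subunits, at 3.73 (2.42 to 5.53) summed, with Rps27l at 5.47 (9 UMIs), Rpl36al at 3.43, Rpl22l1 at 3.38 and Rpl7l1 at 1.49, and Rps19bp1 at 2.45 on 1 UMI.

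A larger shallow set, the 215 other nuclei under 1000 UMIs (143780 UMIs), was compared with the same deep macrophage nuclei, a contrast chosen after seeing the data. It shares its deep nuclei with the contrast above, and its nuclei are of undetermined type, with the separate macrophage list at 2271 CPM over all other nuclei. Canonical members summed to 6190 UMIs there, a ratio of 4.05 (3.94 to 4.16). All 73 were 2-fold or more higher, where 10.9% of 9850 genes were. Rps26 had the highest ratio, 7.31 (5.55 to 9.53, 76 UMIs). Rpl4 was lowest at 2.21 (1.48 to 3.21, 31 UMIs), with Rpl23 at 2.66 (2.17 to 3.23, 115 UMIs). The S6 kinases were at 0.748 (0.604 to 0.917) summed, from 0.393 (Rps6ka2) to 1.08 (Rps6kb1).

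The shallow excess was not even over nuclei or wells. The ratio of all members was 2.67 (2.52 to 2.83) with both wells and 2.87 in well 1, but 1.53 in well 2 with its 7 shallow nuclei. It was 1.62 where 5 macrophage UMIs were required, and 1.06 where nuclei of 1000 to 2000 UMIs took the place of the shallow set.

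Other genes of translation followed the subunits in part. The 6 subunit genes outside the rule, set beside the members in shallow over deep macrophage nuclei, had a summed ratio of 2.74 (2.28 to 3.26), 5 of 6 at 2-fold or more, with Rpsa at 3.00 and Rplp1 at 2.83. Of 25 translation factors 5 were 2-fold or more higher and 3 lower, where 13.4% and 35.7% of all genes were, with a summed ratio of 1.51 (1.32 to 1.72). Among them Eef1a1, the elongation factor that brings aminoacyl-tRNA to the ribosome, was at 2.68 (1.99 to 3.53), and Pabpc1, the poly(A)-binding protein, at 1.75. Of the 15 ribosome biogenesis genes 14 had enough UMIs, 2 of them 2-fold or more higher and 4 lower, near those shares of all genes, with nucleolin (Ncl) at 1.14 and nucleophosmin (Npm1) at 0.769. Of 8 genes that control TOP mRNA translation, 7 had enough UMIs and 4 were 2-fold or more lower, with the mTOR partner Rptor at 0.719 and the TOP-binding Larp1 at 0.455 (0.147 to 1.07). That list includes the members Rps6kb1 and Rps6kb2, so it is not separate from the S6 kinases above.

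Outside translation, cytoplasmic and mitochondrial transcripts were also higher in shallow nuclei. Mitochondrially encoded genes had a summed ratio of 2.07 (1.66 to 2.56) and 10 abundant short cytoplasmic mRNAs one of 2.17 (1.93 to 2.44), with Actb at 2.54 and Ftl1 at 1.32. Nuclear genes of the mitochondrial ribosome were at 0.969 (0.718 to 1.28). Nuclear-retained RNAs were at 0.706 (0.666 to 0.748), with Malat1 at 0.687 and Neat1 at 1.14. The canonical ratio of 2.78 was above each of these lists, and their part in the pattern was not tested.

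**Figure D3:**
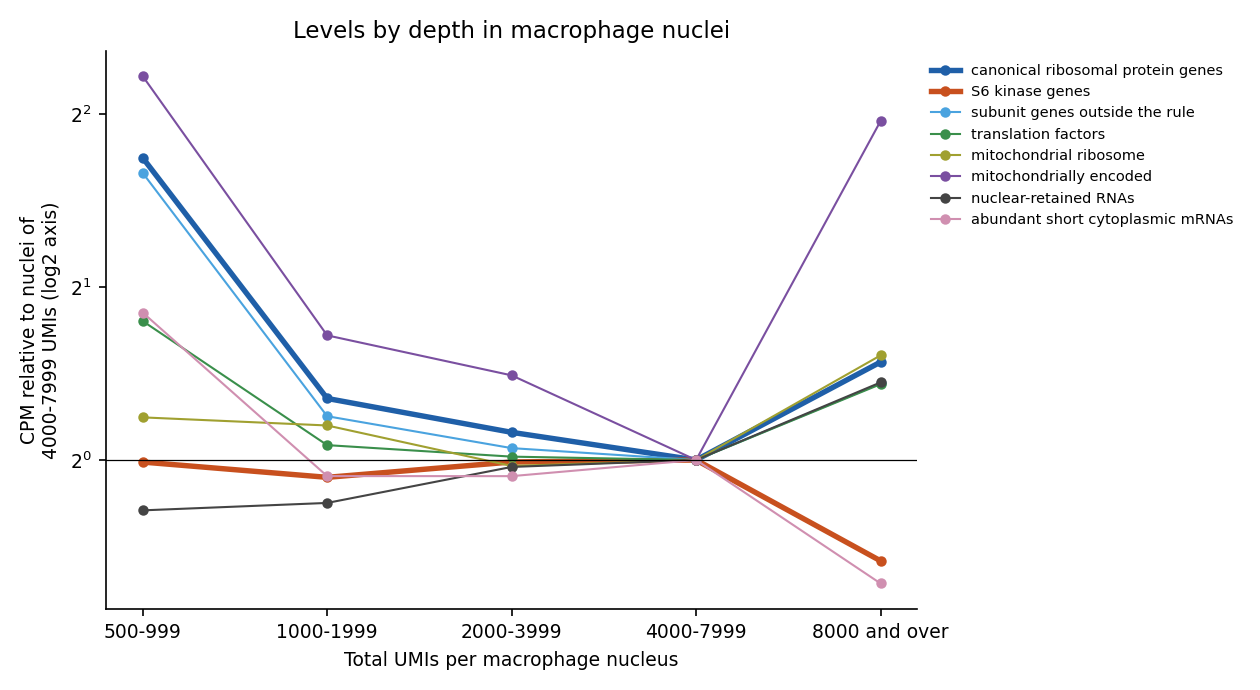
Summed CPM of the canonical members, the S6 kinases and 6 gene lists in macrophage nuclei (y axis, relative to nuclei of 4000 to 8000 UMIs, log2 axis) over the 5 depth bins (x axis, total UMIs per nucleus). Canonical members and the 6 subunit genes outside the rule rise together in the shallowest nuclei, mitochondrially encoded genes rise at both ends, and the S6 kinases do not rise at either end.

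Within a depth bin, the shares of large and small subunit genes went together from nucleus to nucleus. Over 527 macrophage nuclei of 2000 to 4000 UMIs, Pearson's r was 0.915 and Spearman's rho 0.598, and over 320 nuclei of 4000 to 8000 UMIs they were 0.825 and 0.704. These points share libraries and total depth. At 2000 to 4000 UMIs the canonical share had a rho of 0.489 with the subunit genes outside the rule, 0.352 with translation factors, 0.237 with mitochondrially encoded genes, −0.402 with nuclear-retained RNAs and 0.064 with the S6 kinases. The large subunit gave 1.33 UMIs for each of the small subunit in macrophage nuclei (1.31 to 1.36), 1.39 in epithelial and 1.25 in other nuclei, and 1.22 to 1.38 over the macrophage depth bins.

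Epithelial nuclei held a larger pooled share of canonical transcripts than macrophage nuclei, and a smaller one of S6 kinase transcripts. Nuclei of 2000 UMIs and over were compared (182 epithelial, 892 macrophage), of which 66 epithelial and 45 macrophage nuclei had 8000 or more, so depth was not matched. Canonical members summed to 29580 and 46685 UMIs, a CPM ratio of 1.5 (1.48 to 1.52). All 73 ratios were above 1, and 0 reached 2-fold, where 19.7% of 11821 genes were 2-fold or more higher and 14.6% lower. The median over all genes was 1.2, so part of the offset was common to genes at large.

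Canonical members lay in a narrow band. Rpl7a was highest at 1.94 (1.68 to 2.24, 180 against 92.6 CPM), then Rpl9 at 1.85, Rpl14 and Rpl29 at 1.84 and Rpl26 at 1.81. Rps29 was lowest at 1.09 (0.982 to 1.2, 293 against 269 CPM), then Rps9 at 1.2, Rpl27 at 1.23, Rps4x at 1.27 and Rpl31 at 1.29. None departed 1.5-fold from the sum of the others, where 16% of 11821 genes lay that far above the summed canonical ratio and 37.4% that far below. Rpl7a, which was among the lowest in shallow macrophage nuclei, shares 75.2% of the read-length windows in the last 300 bases of its transcript with 20 pseudogenes, so its count is uncertain.

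Kinases went the other way in sum and unequally. They summed to 1296 and 4240 UMIs, a ratio of 0.723 (0.679 to 0.770). From the shallowest bin to the deepest the summed ratio was 0.543, 0.530, 0.862 (0.715 to 1.03), 0.697 and 0.930 (0.846 to 1.02), and the intervals of the 2 bins given here included 1. Rps6ka2 had 24.2 CPM in epithelial and 92.4 CPM in macrophage nuclei, a ratio of 0.262 (0.189 to 0.355). Rps6ka5 had 115 and 230 CPM (0.501, 0.431 to 0.580), Rps6ka3 had 176 and 271 CPM (0.649, 0.573 to 0.732), Rps6kc1 had a ratio of 0.689 and Rps6ka1 one of 0.802. Rps6kb1 (1.38, 1.2 to 1.58) and Rps6kb2 (1.74, 1.03 to 2.92), the mTOR-driven kinases, lay near the subunits instead. Rps6ka6 was the reverse of the other RSK genes at 3.38 (1.87 to 6.21), on 30 and 21 UMIs.

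Single kinases varied between depth bins. Over nuclei of 2000 to 4000, 4000 to 8000 and 8000 or more UMIs, the ratio of Rps6ka2 was 0.757 (0.370 to 1.39), 0.100 (0.0323 to 0.237) and 0.858 (0.504 to 1.46), so its lower level was clear of counting error in 1 of the 3. That of Rps6ka3 was 0.966 (0.680 to 1.34), 0.514 (0.387 to 0.673) and 0.878 (0.731 to 1.05), and that of Rps6ka5 was 0.347, 0.674 and 0.734 (0.585 to 0.921), below 1 in each. Rps6kb1 was higher in the first of these bins (2.02, 1.38 to 2.88) and the second (2.16, 1.61 to 2.87) and at 0.946 (0.778 to 1.15) in the third. By well, Rps6ka2 was 26.0 CPM in the epithelial nuclei of well 1 and 109 CPM in its macrophage nuclei, and 5.82 and 40.5 CPM in well 2, where 1 epithelial UMI was counted and the intervals overlapped. Its count has a limit: 50.5% of the windows at its transcript end occur in annotated transcripts of Sod2 and AC166110.4. Paralogs lay between 1.22 (Rpl7l1) and 2.07 (Rps27rt, 14 and 16 UMIs), with Rps27l at 1.90 (1.51 to 2.39) and Rpl22l1 at 1.65, and Rps19bp1 was at 1.24.

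**Figure D4:**
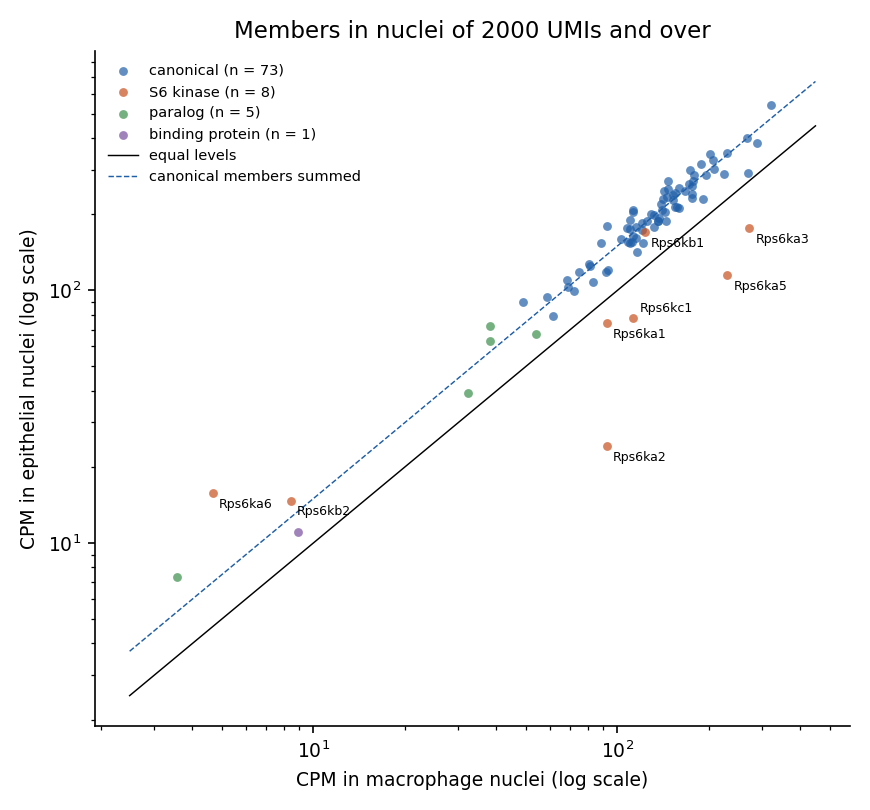
CPM of each member with 30 or more UMIs in epithelial (y axis, log scale) and macrophage nuclei (x axis, log scale) of 2000 UMIs and over, coloured by class, with the line of equal levels and the dashed line of the summed canonical ratio. The 73 canonical members run along the dashed line at 1.5, and Rps6ka2, Rps6ka5, Rps6ka3, Rps6kc1 and Rps6ka1 fall under the line of equal levels.

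How large the epithelial excess was depended on depth and on few nuclei. From the shallowest bin to the deepest, the canonical ratio of epithelial to macrophage nuclei was 1.55, 2.28, 2.67, 1.6 and 1.13. Standardised to the depth of the macrophage nuclei it was 2.15, and 2.03 for all members, but 1.32 for all members from medians per nucleus and 1.6 without the 5 nuclei of highest share in each group, both chosen after seeing the data. The 29 epithelial nuclei of well 2 had 3.81% canonical UMIs and the 270 of well 1 had 1.45%. Other lists standardised the same way gave 2.09 for the subunit genes outside the rule, 1.6 for translation factors, 1.67 for ribosome biogenesis, 3.90 for mitochondrially encoded genes, 0.763 for abundant short cytoplasmic mRNAs and 0.748 for the S6 kinases.

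Macrophage nuclei were then put in 1 of 7 states by marker UMIs, in this order: cycling (34 nuclei), resident (F13a1 and Mrc1, 214), Gpnmb (21), Mmp12 (74), inflammatory (Il1b and Nlrp3, 168), immediate early (Fos, Jun and related genes, 284), and steady, with none of these (335). Each state was compared with the steady nuclei over depth bins holding 10 or more nuclei of both. Standardised ratios of all members were 1.52 in cycling, 1.1 in immediate early, 0.970 in resident, 0.942 in Gpnmb, 0.790 in Mmp12 and 0.780 in inflammatory nuclei. Well 2 held 170 of the 214 resident and 19 of the 21 Gpnmb nuclei, and well 1 held 283 of the steady, 67 of the Mmp12 and 151 of the inflammatory nuclei, so states and wells are intertwined.

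Inflammatory and Mmp12 nuclei had the lowest standardised canonical ratios, 0.786 and 0.790, against 0.972 in Gpnmb nuclei on 1 depth bin. In nuclei of 2000 to 4000 UMIs the pooled share was 0.761% in inflammatory (86 nuclei), 0.720% in Mmp12 (37) and 0.948% in steady nuclei (163), and at 4000 to 8000 UMIs it was 0.719%, 0.735% and 0.842%. Medians per nucleus at 2000 to 4000 UMIs were in the same order, 0.707%, 0.679% and 0.828%. In inflammatory nuclei of 2000 to 8000 UMIs, 12 of 73 canonical members were 1.5-fold or more lower, where 30.6% of 6067 genes were, and 0 were higher, where 11.3% were. In Mmp12 nuclei 12 of 72 were lower, where 29.3% of 5716 genes were, and 0 higher, where 12.8% were. The canonical medians, 0.835 and 0.812, were near those of all genes, 0.807 and 0.853. Both shares of lower members were thus under the background. The 3 inflammatory nuclei of 8000 UMIs and over had a pooled 7.87%, carried by 2 nuclei with 9.14% and 9.15% and 69 and 155 epithelial UMIs.

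Cycling nuclei had more canonical transcripts in sum, with a smaller excess at the median nucleus. At 2000 to 4000 UMIs they had 1.60% (11 nuclei) and at 4000 to 8000 UMIs 1.26% (13 nuclei). Their medians were 1.06% and 0.802%, against 0.828% and 0.766% in steady nuclei. Of 73 canonical members 34 were 1.5-fold or more higher, where 17.4% of 5325 genes were, and 0 lower, where 27.2% were. Rpl29 was highest at 5.15 (2.35 to 10.9, 13 UMIs) and Rps20 next at 2.64 (1.61 to 4.20, 25 UMIs). The ratio of all members was 1.03 without the 5 nuclei of highest share in each group and 1.21 without nuclei holding 3 or more epithelial UMIs. The first removal picks nuclei by the share itself. It takes 5 from a group of 34 cycling nuclei and 5 from 335 steady ones, so it weighs more on the cycling value. In the depth bins compared, epithelial markers gave 0.0534% of UMIs in cycling and 0.0210% in steady nuclei, a standardised ratio of 2.54, and their part in the excess was not tested. Over all depths the cycling nuclei had 2603 CPM of epithelial markers, 3168 of milk protein genes and 773 of the 4 macrophage markers. Steady nuclei had 320, 638 and 3208 CPM. The 6 cycling nuclei of 8000 UMIs and over, which were not among the bins compared, held 285348 of the state's 393031 UMIs.

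**Figure D5:**
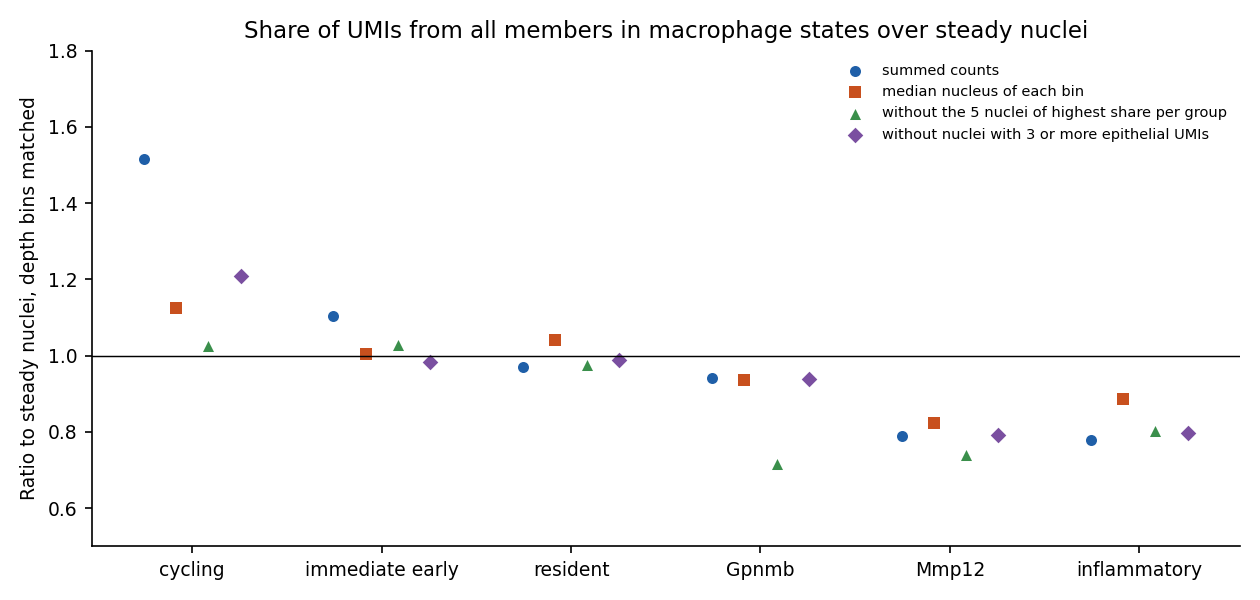
Standardised ratio of the share of UMIs from all members in each macrophage state to steady nuclei (y axis; the line marks 1), as summed counts, from the median nucleus of each bin, without the 5 nuclei of highest share per group, and without nuclei holding 3 or more epithelial UMIs. Cycling falls from 1.52 to between 1.03 and 1.21 under the other settings, and Mmp12 and inflammatory stay under 1. The removal of 5 nuclei weighs more on small states.

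Immediate early and resident nuclei had standardised ratios near 1. In immediate early nuclei 5 of 73 canonical members were 1.5-fold or more higher, where 11.2% of 6963 genes were, led by Rpl29 at 1.86 and Rpl7a at 1.59, and 0 were lower, where 11.2% were. The ratio of all members turned from 1.1 to 0.983 without nuclei holding 3 or more epithelial UMIs. In resident nuclei 1 canonical member, Rpl29 at 1.93 (1.07 to 3.54), was higher, where 17.1% of 6775 genes were, and 0 were lower, where 16.6% were. The resident ratio was 1.03 in well 1 and 0.918 in well 2. By depth bin the pooled canonical ratio of resident to steady nuclei went from 0.769 (0.688 to 0.858) at 1000 to 2000 UMIs to 1.04 at 2000 to 4000 and 1.18 (1.12 to 1.24) at 4000 to 8000, so the standardised value joins bins of opposite direction. In well 2 it was 1.03 (0.875 to 1.22) at 1000 to 2000 UMIs and 0.850 (0.788 to 0.917) at 2000 to 4000. In well 1 it was 0.967 (0.869 to 1.07) at 2000 to 4000 UMIs and 1.25 (1.16 to 1.34) at 4000 to 8000. Over these 2 bins the pooled rise was thus not seen in well 2. At 4000 to 8000 UMIs well 2 had under 10 steady nuclei and gave no ratio, so a rise to that bin could not be seen there. In the 18 Gpnmb nuclei of 2000 to 8000 UMIs 5 of 72 canonical members were higher, where 20.9% of 5293 genes were, and 19 lower, where 37.1% were. Their canonical median there was 0.837, against 0.857 over all genes, so it was close to the medians of inflammatory and Mmp12 nuclei. Without the 5 nuclei of highest share the Gpnmb ratio was 0.716, on 1 depth bin. That removal takes as many from the 21 Gpnmb nuclei as from the 335 steady ones, so it weighs more on the Gpnmb value.

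The S6 kinases differed between states one by one. In nuclei of 2000 to 8000 UMIs, Rps6ka2 had 345 CPM in Mmp12 nuclei (280 to 420, 98 UMIs), 183 in Gpnmb, 132 in steady, 112 in inflammatory, 101 in immediate early, 69.2 in cycling and 35 in resident nuclei (22.4 to 52.0, 24 UMIs). The Mmp12 level stood at 2.61 times the steady one (1.96 to 3.46) and the resident level at 0.264 (0.162 to 0.415). The Mmp12 value rested in part on 1 nucleus with 31 of the 98 UMIs, and was 240 CPM without it, with a UMI in 22 of 68 nuclei against 67 of 230 steady ones. Within well 1 the levels were 372 CPM in Mmp12 (302 to 453), 152 in steady (124 to 184) and 84.2 in resident nuclei (43.5 to 147, 12 UMIs). The resident and steady intervals thus overlapped in well 1. In well 2 the levels were 22.1 CPM in 141 resident nuclei and 0 in the 32 steady nuclei (0 to 35.4 CPM), so the resident difference could not be seen there.

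Rps6ka3 and Rps6ka5 had other orders. Rps6ka3 was highest in resident nuclei at 390 CPM (345 to 440), against 301 in steady ones (264 to 341), a ratio of 1.30 (1.09 to 1.55), and lowest in cycling nuclei at 158 on 16 UMIs. Rps6ka5 was at 329 CPM in steady nuclei (291 to 371), 216 in resident (182 to 253) and 151 in Mmp12 nuclei (109 to 204), with ratios to steady of 0.655 and 0.459. In well 1, where most steady nuclei lay, Rps6ka3 had 393 CPM in resident and 298 in steady nuclei, and Rps6ka5 had 288 (206 to 390) and 348 (306 to 395), with overlapping intervals. In well 2 Rps6ka3 had 390 CPM in resident and 316 (218 to 444) in steady nuclei, and Rps6ka5 had 197 (161 to 238) and 201 (125 to 308), so the pooled Rps6ka5 difference was not seen there.

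With the 2 wells pooled, Rps6ka1 was lower in resident (0.553, 0.392 to 0.771), Mmp12 (0.421, 0.237 to 0.703) and inflammatory nuclei (0.566, 0.381 to 0.823), and Rps6kb1 in inflammatory nuclei (0.516, 0.333 to 0.778). In well 1 Rps6ka1 had 149 CPM in steady nuclei (122 to 181), against 56.9 in Mmp12 (31.9 to 93.9) and 73.9 in inflammatory ones (50.5 to 104). Its 84.2 CPM in resident nuclei of well 1 (43.5 to 147, 12 UMIs) overlapped the steady interval. In well 2, where steady nuclei had 95.9 CPM (46.0 to 176, 10 UMIs), resident nuclei had 77.2 CPM (55.6 to 104), Mmp12 nuclei 96.4 on 2 UMIs and inflammatory nuclei 153 on 6 UMIs, so a lower level could not be seen there. Rps6kb1 had 62.3 CPM in inflammatory and 116 in steady nuclei of well 1, and 102 (4 UMIs) and 201 in well 2, where the intervals overlapped.

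Members were also compared by features that the rule did not use. Of the 73 canonical genes 28 host a small nucleolar RNA (snoRNA), a guide of ribosomal RNA modification, annotated inside the gene on its strand, and their median shallow over deep ratio was 2.42, against 2.90 for the 45 that host none; the epithelial over macrophage medians were 1.52 and 1.49. Rpl13a hosts 4 (Snord32a, Snord33, Snord34 and Snord35a). Of the canonical genes 31 shared no read-length window at the transcript end with another gene, and had medians of 2.84 and 1.49, the same or nearly the same as over all canonical members (2.84 and 1.5). Rpl29, which was lowest in shallow macrophage nuclei and highest in 3 of the states, shares 14.3% of its windows with 11 pseudogenes, had the fewest UMIs of the canonical members (235 in macrophage nuclei), and so the widest relative counting error. Its ratios in the 3 states were all taken to the same 230 steady nuclei, so they are not separate observations. Over the 84 members with enough UMIs, gene length and the shallow over deep ratio had a Spearman's rho of −0.419, and over the 73 canonical members alone −0.261.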

How the data were processed

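The authors deposited raw UMI counts per gene and barcode in 1 matrix over 2 wells; reads were processed with Cell Ranger 5.0 on mm10, per the submitters' processing notes (5.0.1, per the file headers). The sources used here do not give the gene annotation, intron counting or barcode calling. Of 1838 barcodes, 21 were removed (under 500 UMIs, under 300 genes or over 5% mitochondrially encoded UMIs), and so were 5 doublet calls of Scrublet (scanpy 1.11.5), which called 0 of 1377 in well 1 and 5 of 440 in well 2 (1.14%), a low yield. Intervals are exact: binomial for shares, Poisson for CPM and conditional binomial for ratios (scipy 1.17.1 and numpy 2.4.6 under Python 3.11.15, with tables in pandas 2.3.3 and plots in matplotlib 3.10.9); standardised ratios carry none. The ratio and interval scripts were tested on simulated data. Of the gene identifiers, 32235 of 32285 and all 92 members were found in GENCODE vM21, the source of positions, lengths and shared transcript ends (windows of 91 bases in the last 300 bases of 1 transcript a gene).

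Depth bins began at 500, 1000, 2000, 4000 and 8000 UMIs. Standardised ratios weight bins by the reference nuclei. A gene entered a contrast with 30 or more UMIs over both sets, and a member deviated at 1.5-fold from the other canonical members summed. Named genes were the 5 highest and lowest canonical ratios in each contrast, the 10 members with most UMIs, every non-canonical member with 30 or more UMIs in all nuclei, and the 2 genes of each list with most UMIs; extremes within states, and kinases by well or depth bin, were chosen after their values were seen. A few genes under this rule are not reported here. Members, classes, lists and states were chosen with earlier results of these data known.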

Additional observations from a re-analysis of the deposited data

How the results depend on the processing

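No paired analysis was possible because the matrix is 1 pooled sample and no barcode could be tied to a numbered sample. Of 134 alternatives over 12 results, 82 stayed within the counting interval (or, for counts of members, within 1.5 times), 51 moved and 1 reversed. 5 gave no value, for too few nuclei: cycling and Mmp12 in well 2, and Gpnmb in each well and with states set by marker UMIs per 1000 UMIs. Medians per nucleus, the other shallow nuclei and the removal of the 5 nuclei of highest share were chosen after seeing the data. That removal picks nuclei by the share itself and takes the same number from groups of unequal size, so it weighs more on small groups. For standardised ratios an approximate counting interval, not printed, served only to decide whether a value had moved. All values are of all members unless stated, and the causes of these changes were not tested.

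The share at 500 to 1000 UMIs in macrophage nuclei, 3.13%, became 2.96% for canonical members, 3.47% with the 6 other subunit genes, 1.83% with a minimum of 5 macrophage UMIs, 3.38% in well 1, 1.77% in well 2 and 2.79% without nuclei of 3 or more epithelial UMIs. At 2000 to 4000 UMIs the share, 1.10%, became 0.984%, 1.22%, 1.06%, 1.08%, 1.15% and 1.02% in the same order, 1.14% without mitochondrially encoded genes and Malat1 in the total, and 0.959% as the median nucleus. The shallow over deep ratio, 2.67, became 1.62 with a minimum of 5, 2.87 in well 1, 1.53 in well 2, 1.06 with nuclei of 1000 to 2000 UMIs and 3.78 with the other shallow nuclei.

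The epithelial ratio, 2.03, became 2.15 for canonical members, 2.13 with a minimum of 5, 1.81 in well 1, 2.43 in well 2, 2.21 without macrophage nuclei of 3 or more epithelial UMIs, 2.37 with 0 macrophage UMIs required of epithelial nuclei, 1.32 from medians and 1.6 without the 5 highest nuclei.

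Cycling, 1.52, became 1.64 for canonical members, 1.21 without nuclei of 3 or more epithelial UMIs, 1.12 from medians and 1.03 without the 5 highest. Immediate early, 1.1, reversed to 0.983 without nuclei of 3 or more epithelial UMIs, and became 1.03 with a minimum of 5, 1.06 in well 2, 1.01 from medians and 1.03 without the 5 highest. Resident, 0.970, became 1.03 with a minimum of 5, 1.03 in well 1, 0.918 in well 2 and 1.04 from medians, values on both sides of 1. Inflammatory, 0.780, became 0.825 with a minimum of 5, 0.833 in well 2 and 0.885 from medians. Mmp12, 0.790, became 0.836 in well 1 and 0.740 without the 5 highest, and Gpnmb, 0.942, became 0.716 without the 5 highest.

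The number of deviating members in the shallow over deep contrast, 23, became 61 with a minimum of 5 macrophage UMIs, 46 in well 2, 9 at 2-fold and 13 with the other shallow nuclei. In the epithelial contrast the 6 deviating members, all S6 kinases, became 0 with canonical members alone and 15 in well 2. The 37728 UMIs of the shallow macrophage set leave most single members with under 30 UMIs there, so the order of most canonical members there was not detectable at this depth.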

Other observations

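In 54 epithelial nuclei of 1000 to 2000 UMIs the canonical share had a Spearman's rho of 0.805 with abundant short cytoplasmic mRNAs and −0.543 with nuclear-retained RNAs. These are descriptions over nuclei of 2 pooled wells that share library and depth.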
